A study of Mus musculus with 12 samples.

Results

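The 20 genes described here were those whose lowest level in any injured library was at least 1.5 times their highest level in any non-injured (NI) library, with a mean over the injured libraries of at least 2 normalized counts. They were taken from the 16389 genes measured in eGFP+ cells sorted from the mouse spinal cord. Of the 13240 genes with that mean, 31 (0.234%) met the ratio, and 11 of these, such as the complement and mast cell protease genes, were set aside by name. The same values that chose the 20 genes are given below as a description, and no test of these genes against NI is given. Of 3 genes expected to mark the group, Fgfr4 and Myzap met the rule. Tubb3, which encodes the neuronal tubulin beta III, did not meet it, so the genes are called here by the rule and not by a cell type.

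Libraries came from adult male Aldh1l1-EGFP mice on a Swiss Webster background, in which the Aldh1l1 promoter drives eGFP, so the sort selected cells by the activity of that astrocyte promoter. Mice were 12 weeks old when the thoracic cord was cut at the ninth segment, and a 1 cm piece around the lesion was dissociated. The groups were full transection (FT) at 2 weeks (3 libraries) and at 1 week (1 library), lateral hemisection (HS) at 2 weeks (2 libraries) and at 1 week (3 libraries), and NI controls that carried the same transgene and no lesion (3 libraries). More mice than libraries were used in every group, so a library held RNA of more than 1 animal, and p-values below measure the spread between these pools. FT 1 week had no replicate, and its spread was taken from the other groups.

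After a spinal cord lesion, astrocytes near the wound become reactive: they enlarge, raise intermediate filament proteins and secrete proteases, protease inhibitors and cytokines into a tissue that is also filling with activated microglia and blood-borne macrophages. Stat3 is a central transcription factor of this state and is needed for a compact glial scar. Extracellular kallikreins and serpins act on opposite sides of proteolysis in the injured matrix, and growth factors pass between astrocytes, microglia and oligodendrocyte precursors.

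The libraries held 8270643 to 15562378 recovered reads, and 1 read was worth between 0.0612 and 0.134 normalized counts, the unit of all levels below. The summed level of 20 astrocyte markers was 2955 to 17191 in injured libraries and 3169 to 9480 in NI libraries, and that of 12 oligodendrocyte markers was 57896 to 117456 in injured and 56755 to 94517 in NI libraries. The oligodendrocyte sum was thus above the astrocyte sum in every library, although lists of different genes do not measure shares of cells. The levels below are those of the sorted cells as a whole and are not assigned to a cell type. For 17 microglia and macrophage markers the sums were 990 to 14195 in injured and 972 to 8358 in NI libraries, and for 12 neuron markers 92.0 to 218 in injured and 68.4 to 158 in NI libraries. The sums of all 9 cell type lists overlapped between injured and NI libraries, and no measured marker was at 0 in any library. The astrocyte markers Gfap (101 to 1631 in injured, 33.3 to 154 in NI libraries) and Aldh1l1 (13.8 to 127 in injured, 10.2 to 82.3 in NI libraries) overlapped as well. In such sorted pools, a larger share of a cell type and more RNA per cell cannot be told apart.

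**Figure D1:**
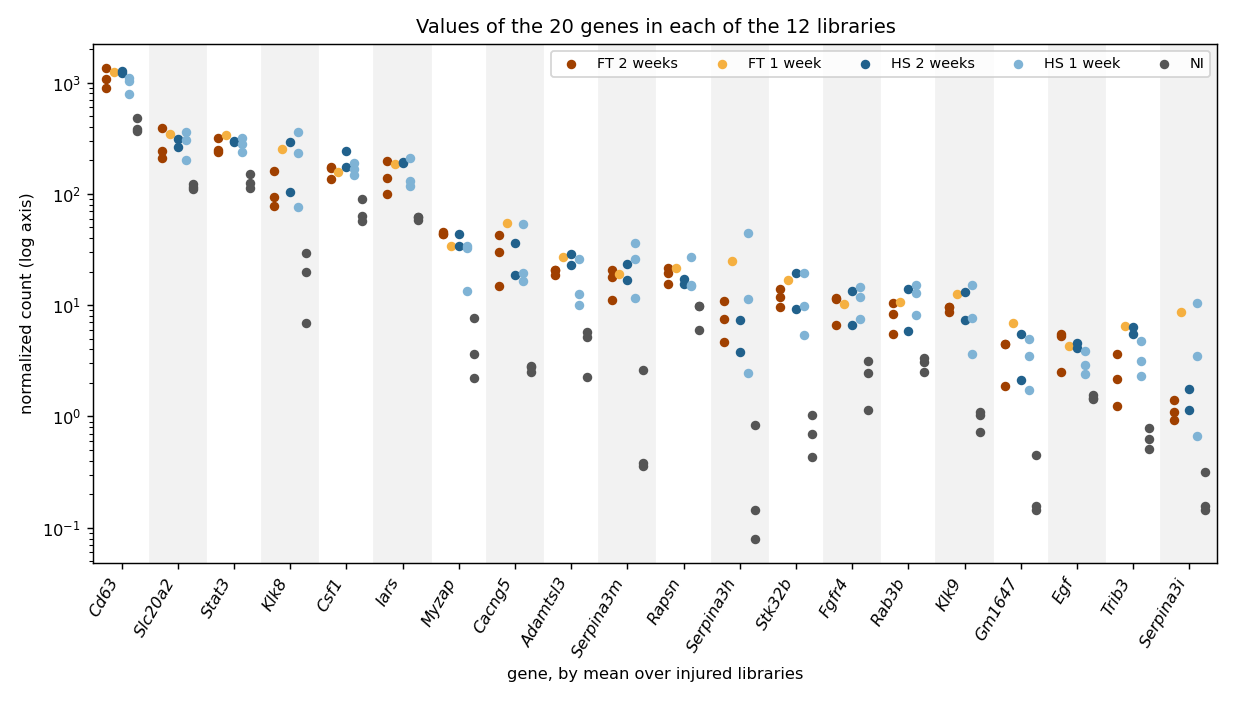
Normalized counts (log axis) of the 20 genes, ordered by their mean over the injured libraries, with 1 point per library and NI libraries in grey. Every injured point lies above every NI point of its gene, which the rule requires, and the injured points of Serpina3h spread widest, between 2.45 and 44.2.

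The 20 genes covered a wide range of abundance. Per kilobase of exon, the mean over injured libraries was 300.2 normalized counts for Cd63, 119 for Klk8 and 47.0 for Slc20a2 at the top, and 0.349 for Egf at the bottom. The fold of the injured mean over the NI mean was lowest for Rapsn (2.19) and Stat3 (2.21) and highest for Serpina3h (37.1), followed by Serpina3m (18.3) and Stk32b (17.9). The ratio of the lowest injured to the highest NI library ordered the genes differently, with Stk32b (5.33), Cacng5 (5.29) and Serpina3m (4.27) first. Just inside the limit of 1.5 lay Rapsn (1.50091), Csf1 (1.50218) and Egf (1.54559). Just outside it lay Thbs3 (1.4998), Tmod1 (1.4965) and Mmp11 (1.48966), so that the boundary does not mark a gap. Thbs3, a matrix thrombospondin, had 24.03 to 45.8 in injured libraries against 12.9 to 16.02 in NI, Tmod1, which caps actin filaments, 86.9 to 154 against 10.4 to 58.1, and Mmp11, a matrix metalloproteinase, 12.8 to 30.4 against 3.96 to 8.56. With every library rescaled to the same total, after which the median gene stood at -0.13 to -0.27 against NI on the log2 scale, Stat3, Csf1, Adamtsl3, Rapsn, Rab3b, Egf and Trib3 fell short of the ratio and 13 members remained. In the other direction, 3 of 13590 genes (0.0221%) had their highest injured library at or below the lowest NI library divided by 1.5, namely Epx, Nptx1 and Prg2.

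**Figure D2:**
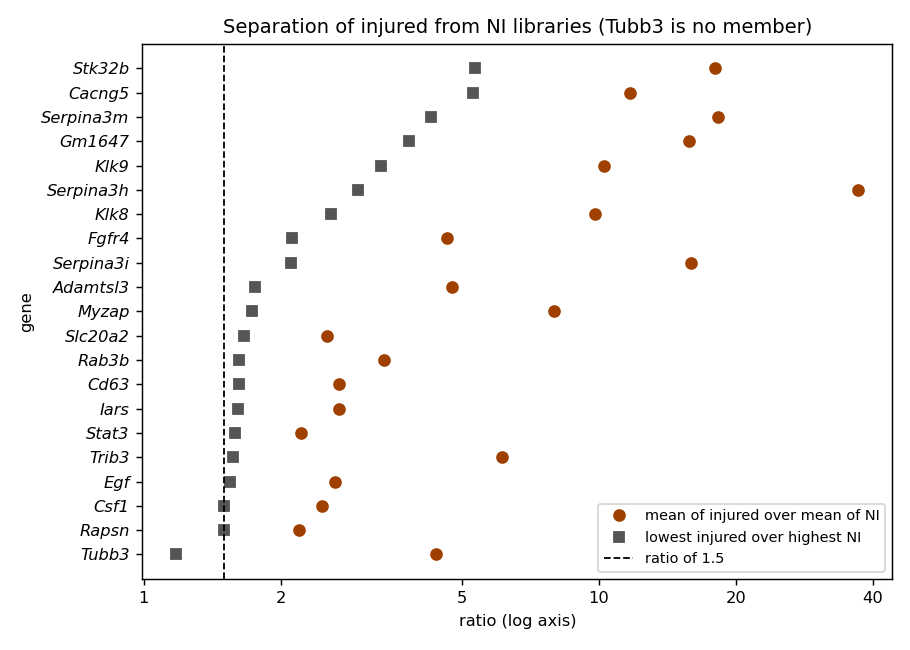
Ratios (log axis) of the injured mean over the NI mean (circles) and of the lowest injured over the highest NI library (squares) for the 20 genes and Tubb3, with a dashed line at 1.5. Tubb3 has a fold of 4.39, larger than that of Csf1 (2.47) or Stat3 (2.21), but its square lies at 1.18.

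Among the secreted proteases, a pair of neighbouring kallikreins met the rule. Klk8 encodes neuropsin, an extracellular serine protease of the nervous system (GRCm38 chromosome 7, 43797577 to 43803826, plus strand). It had 93.5, 77.7 and 162 normalized counts in the FT 2 weeks libraries, 252 in FT 1 week, 105 and 292 in HS 2 weeks and 235, 363 and 75.7 in HS 1 week, against 6.91, 19.98 and 29.4 in NI. The highest level was that of HS 1 week replicate 2 and the lowest injured level that of HS 1 week replicate 3, which still stood 2.57 times above the highest NI library. Klk9, a further kallikrein-related peptidase that starts upstream on the same strand (43791891 to 43796757), ended 819 bases before Klk8 began. Its levels were 8.69, 9.55 and 9.64 in FT 2 weeks, 12.5 in FT 1 week, 7.40 and 13.0 in HS 2 weeks and 7.64, 15.1 and 3.61 in HS 1 week, against 1.02, 1.09 and 0.720 in NI. The same HS 1 week libraries were highest and lowest for both genes. Klk8 had 8.13 to 30.8 times the normalized count of Klk9 in injured libraries and 6.77 to 40.9 times in NI libraries, so this ratio overlapped between the groups. Klk6, the most abundant kallikrein of the table, did not meet the rule, with 1501 to 7944 in injured libraries and 4283, 861 and 917 in NI, where replicate 1 stood inside the injured range. An opposite-strand transcript, 2310002F09Rik, overlaps both Klk8 and Klk9 and had 0.795 to 5.70 in injured libraries and 0.144 to 0.550 in NI libraries. The library kit does not mark strand, so reads of these genes and of their antisense partner cannot be told apart where they overlap.

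The promoter windows of both genes, from 250 bases before to 50 bases after the start in RefSeq, are shown because these neighbours both met the rule. The coordinates on GRCm38.p6 are chr7:43791641-43791940 for Klk9 and chr7:43797327-43797626 for Klk8, both on the plus strand. The sequences are in lower case throughout because none of the 5 motifs searched was found in either window.
Klk9: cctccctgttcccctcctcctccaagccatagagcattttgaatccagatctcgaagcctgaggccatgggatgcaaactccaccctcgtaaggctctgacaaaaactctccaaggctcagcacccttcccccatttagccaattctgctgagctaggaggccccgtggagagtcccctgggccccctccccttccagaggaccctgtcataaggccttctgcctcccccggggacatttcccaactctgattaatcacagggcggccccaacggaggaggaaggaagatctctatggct
Klk8: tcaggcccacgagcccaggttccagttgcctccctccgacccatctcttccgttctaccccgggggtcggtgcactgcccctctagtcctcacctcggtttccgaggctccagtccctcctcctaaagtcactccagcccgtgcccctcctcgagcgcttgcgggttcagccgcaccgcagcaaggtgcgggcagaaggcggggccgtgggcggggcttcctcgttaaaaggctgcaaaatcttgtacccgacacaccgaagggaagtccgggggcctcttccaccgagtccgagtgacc

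A group of 3 members came from the Serpina3 cluster on chromosome 12, the mouse expansion of the single human gene for alpha antichymotrypsin, a serine protease inhibitor of the acute phase. Serpina3h (104247905 to 104253669), Serpina3i (104263122 to 104269372) and Serpina3m (104338486 to 104394257) lie in this order on the plus strand, with gaps of 9452 and 69113 bases. Serpina3m had 20.7, 11.1 and 18.1 in FT 2 weeks, 19.2 in FT 1 week, 16.8 and 23.3 in HS 2 weeks and 26.2, 35.9 and 11.6 in HS 1 week, against 2.59, 0.383 and 0.360 in NI. The lowest injured level was that of FT 2 weeks replicate 2. Serpina3h, annotated as a transcribed pseudogene, had 4.67, 7.57 and 10.97 in FT 2 weeks, 24.8 in FT 1 week, 3.77 and 7.40 in HS 2 weeks and 11.3, 44.2 and 2.45 in HS 1 week, against 0.0786, 0.830 and 0.144 in NI. It varied 18.1-fold among injured libraries, the widest range of the 20 genes. The level of Serpina3i was 1.096, 0.932 and 1.41 in FT 2 weeks, 8.73 in FT 1 week, 1.14 and 1.76 in HS 2 weeks and 3.52, 10.4 and 0.673 in HS 1 week, against 0.157, 0.319 and 0.144 in NI. FT 1 week and HS 1 week replicate 2 were the highest libraries for both Serpina3h and Serpina3i, while HS 1 week replicate 3 was the lowest injured library for both. The NI values rest on few reads, 16 in all for Serpina3h and 9 for Serpina3i over the 3 NI libraries, and FT 2 weeks replicate 2 had 8 reads of Serpina3i.

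These members are close in sequence to the much more abundant Serpina3n, which had 408 to 1938 normalized counts in injured libraries and 24.4 to 126 in NI libraries. How reads shared by such copies were counted is not given in the sources used here, so the levels of the 3 members are uncertain. Relative to Serpina3n, Serpina3m stood at 1.15% to 2.83% in injured and 1.05% to 2.05% in NI libraries, Serpina3h at 0.437% to 2.28% in injured and 0.0622% to 2.28% in NI libraries, and Serpina3i at 0.101% to 0.537% in injured and 0.124% to 0.879% in NI libraries. None of these 3 proportions separated injured from NI libraries. Serpina3m also overlaps Serpina3k on the same strand in the annotation.

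Adamtsl3 encodes a secreted matrix protein related to the ADAMTS proteases but without a protease domain (chromosome 7, 82335694 to 82614450). Its levels were 20.8, 18.5 and 20.5 in FT 2 weeks, 27.3 in FT 1 week, 23.0 and 28.6 in HS 2 weeks and 25.8, 9.98 and 12.7 in HS 1 week, against 2.28, 5.17 and 5.69 in NI. HS 1 week replicates 2 and 3 were the lowest injured libraries.

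Among the ligands, Csf1, the growth factor that keeps microglia and macrophages alive and dividing, had 172, 136 and 176 normalized counts in FT 2 weeks, 159 in FT 1 week, 242 and 175 in HS 2 weeks and 147, 169 and 188 in HS 1 week. Its NI libraries had 90.3, 57.4 and 63.6. Csf1 was among the steadier members within the injured groups, with a coefficient of variation (CV) of 17.4% over the 9 libraries, and HS 2 weeks replicate 1 was highest. Egf, the ligand of the epidermal growth factor receptor, had 5.26, 5.48 and 2.52 in FT 2 weeks, 4.30 in FT 1 week, 4.13 and 4.54 in HS 2 weeks and 2.91, 2.43 and 3.85 in HS 1 week, against 1.57, 1.47 and 1.44 in NI. The separation was narrow and was set by HS 1 week replicate 2 and NI replicate 1. An antisense transcript over Egf, 6330410L21Rik, overlapped between the groups, at 0.245 to 0.932 in injured and 0.638 to 1.26 in NI libraries.

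Fgfr4, a fibroblast growth factor receptor (chromosome 13, 55152640 to 55168759), was the only member among the receptors of that family. It had 11.5, 6.64 and 11.3 normalized counts in FT 2 weeks, 10.3 in FT 1 week, 6.69 and 13.5 in HS 2 weeks and 11.8, 14.5 and 7.59 in HS 1 week, against 3.14, 1.15 and 2.45 in NI. The group means of 9.82 ± 2.75 (SD, n = 3) in FT 2 weeks, 10.1 ± 4.80 (n = 2) in HS 2 weeks and 11.3 ± 3.48 (n = 3) in HS 1 week were closer to each other than the libraries within a group. The other receptors were more abundant and overlapped NI: Fgfr2 had 193 to 253 in injured libraries against 175 to 262 in NI, Fgfr3 had 10.5 to 275 against 29.3 to 236, and Fgfr1 had 22.8 to 121 against 24.98 to 124.

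**Figure D3:**
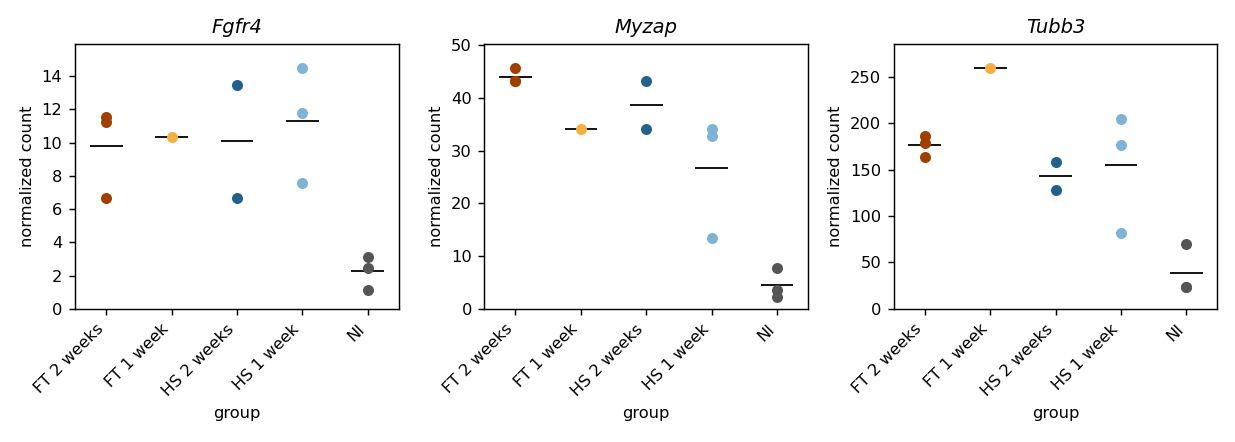
Normalized counts of Fgfr4, Myzap and Tubb3 in each library (points) with group means (lines). Fgfr4 and Myzap are higher in every injured library by the ratio of 1.5, whereas NI replicate 1 of Tubb3 (69.6) lies close under HS 1 week replicate 3 (82.2).

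Stat3, which carries cytokine signals to the nucleus (chromosome 11, 100885098 to 100939540), had 318, 238 and 246 normalized counts in FT 2 weeks, 339 in FT 1 week, 301 and 290 in HS 2 weeks and 278, 318 and 239 in HS 1 week, against 150, 124 and 113 in NI. It was the least variable member among injured libraries, with a CV of 13.1%. Stat5a, which overlaps Stat3 on the opposite strand, did not separate the groups, with 4.51 to 9.13 in injured and 5.43 to 8.88 in NI libraries. Stk32b, which encodes a little-studied serine/threonine kinase, had 14.1, 11.9 and 9.71 in FT 2 weeks, 16.8 in FT 1 week, 9.25 and 19.6 in HS 2 weeks and 19.4, 9.80 and 5.44 in HS 1 week, against 1.02, 0.702 and 0.432 in NI. Even its lowest injured library, HS 1 week replicate 3, was 5.33 times the highest NI library, the widest gap of the 20 genes, although the NI libraries held only 30 reads of it in all. The related Stk32a had 2.42 to 9.12 in injured libraries against 3.02 to 8.11 in NI.

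Trib3 and Iars belong to the genes that the transcription factor ATF4 switches on in the integrated stress response. Trib3 encodes a pseudokinase that restrains Akt and ATF4 signalling. It had 1.24, 3.61 and 2.15 normalized counts in FT 2 weeks, 6.45 in FT 1 week, 5.48 and 6.30 in HS 2 weeks and 4.73, 3.12 and 2.32 in HS 1 week, against 0.629, 0.511 and 0.792 in NI. FT 2 weeks replicate 1 came nearest to NI, and 27 NI reads and 17 reads in that library stand behind these values. Iars, the cytosolic isoleucyl-tRNA synthetase, had 196, 140 and 100 in FT 2 weeks, 185 in FT 1 week, 194 and 191 in HS 2 weeks and 210, 132 and 118 in HS 1 week, against 62.2, 58.0 and 61.9 in NI. The NI libraries of Iars were almost equal, and the lowest injured library, FT 2 weeks replicate 3, was 1.61 times the highest of them.

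Of the 20 members, 16 had a promoter in the RefSeq table, with 18 windows of 300 bases in all. The motif TGATGNAA, the core shared by amino acid response elements that ATF4 binds, was searched on both strands and occurred in the windows of Iars, Trib3 and Myzap, and in 3.97% of all 32851 windows. These 3 windows are printed because they hold it, with matches in capitals. They lie at chr13:49681880-49682179 (plus strand) for Iars, chr2:152344011-152344310 (minus strand) for Trib3 and chr9:71592311-71592610 (minus strand) for Myzap on GRCm38.p6.
Iars: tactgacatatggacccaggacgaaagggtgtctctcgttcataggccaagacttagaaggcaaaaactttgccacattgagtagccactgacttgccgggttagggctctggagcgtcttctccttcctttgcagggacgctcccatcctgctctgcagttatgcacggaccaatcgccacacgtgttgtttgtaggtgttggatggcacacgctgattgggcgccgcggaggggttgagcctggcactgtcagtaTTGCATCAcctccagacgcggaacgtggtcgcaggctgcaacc
Trib3: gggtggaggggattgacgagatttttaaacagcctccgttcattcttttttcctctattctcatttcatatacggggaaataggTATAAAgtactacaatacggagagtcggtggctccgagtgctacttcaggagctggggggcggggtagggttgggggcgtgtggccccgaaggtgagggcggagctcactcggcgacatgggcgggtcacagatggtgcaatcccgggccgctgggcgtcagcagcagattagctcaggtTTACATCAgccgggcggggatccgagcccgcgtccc
Myzap: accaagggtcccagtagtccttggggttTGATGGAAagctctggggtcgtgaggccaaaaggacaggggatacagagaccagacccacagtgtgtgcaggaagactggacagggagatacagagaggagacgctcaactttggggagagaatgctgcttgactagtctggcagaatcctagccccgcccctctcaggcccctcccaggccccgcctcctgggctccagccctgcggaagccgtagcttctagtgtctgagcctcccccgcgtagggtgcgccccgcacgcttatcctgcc
In Iars and Trib3 the match reads on the reverse strand and begins 7 and 14 bases after the RefSeq start, and in Myzap it begins at position -222 from the start. The capitals nearer the 5′ end of the Trib3 window mark TATAAA, which was also found in Gm1647 and Rab3b and in 13.6% of all windows. The STAT-type motif TTCNNNGAA (8.30% of all windows) was found in 1 member, Serpina3i, and the AP-1-type motif TGANTCA (7.81%) in 1, Cacng5. The interferon response element core (3.44%) was found in 0 member windows. No motif overlapped another, and a match is a description of the letters only.

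Myzap encodes a myocardial zonula adherens protein, known from the intercalated disc of heart muscle (chromosome 9, 71504347 to 71592360, minus strand). It had 43.2, 43.2 and 45.7 normalized counts in FT 2 weeks, 34.1 in FT 1 week, 34.1 and 43.3 in HS 2 weeks and 32.7, 34.2 and 13.3 in HS 1 week, against 7.70, 3.64 and 2.23 in NI. HS 1 week replicate 3 was the single low injured library, and FT 2 weeks was the most uniform group (44.0 ± 1.43, SD, n = 3). The neighbouring Polr2m, whose reads can run together with those of Myzap, was 23.5 to 39.4 in injured and 23.5 to 39.6 in NI libraries.

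Further members act at membranes and synapses. Cacng5, an auxiliary subunit of AMPA-type glutamate receptors, had 29.9, 42.8 and 14.97 in FT 2 weeks, 55.2 in FT 1 week, 18.7 and 35.8 in HS 2 weeks and 53.1, 19.6 and 16.3 in HS 1 week, against 2.83, 2.81 and 2.52 in NI. The NI libraries were almost equal, whereas the injured libraries varied 3.69-fold. Rapsn, the scaffold that clusters acetylcholine receptors at the neuromuscular junction, had 19.4, 21.6 and 15.5 in FT 2 weeks, 21.8 in FT 1 week, 15.5 and 17.1 in HS 2 weeks and 15.3, 27.2 and 14.7 in HS 1 week, against 9.82, 5.94 and 9.79 in NI. Rab3b, a small GTPase of regulated secretion, had 8.40, 5.48 and 10.4 in FT 2 weeks, 10.7 in FT 1 week, 5.83 and 13.8 in HS 2 weeks and 13.0, 15.1 and 8.07 in HS 1 week, against 3.38, 3.06 and 2.52 in NI. For Rab3b the nearest library to NI was FT 2 weeks replicate 2, not HS 1 week replicate 3.

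The most abundant member was Cd63, a tetraspanin of late endosomes and secreted vesicles. It had 885, 1072 and 1364 in FT 2 weeks, 1244 in FT 1 week, 1220 and 1261 in HS 2 weeks and 1093, 1028 and 782 in HS 1 week, against 483, 384 and 370 in NI. Slc20a2, a sodium-dependent phosphate importer, had 390, 242 and 208 in FT 2 weeks, 347 in FT 1 week, 310 and 265 in HS 2 weeks and 361, 304 and 202 in HS 1 week, against 122, 115 and 110 in NI. The long noncoding RNA Gm1647, whose function is not annotated, had 4.46, 1.86 and 4.45 in FT 2 weeks, 6.85 in FT 1 week, 2.13 and 5.49 in HS 2 weeks and 3.52, 4.94 and 1.71 in HS 1 week, against 0.157, 0.447 and 0.144 in NI. Its NI values rest on 11 reads.

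Apart from their values, the 20 genes had little in common in structure. They lay on 11 chromosomes, 18 of them (90%) were annotated as protein coding, against 97.3% of the genes with the same mean, and their median exonic length was 3533 bases, against 4610. Their CV over the 9 injured libraries had a median of 32.2%, against 24.4% for all genes with that mean. The kallikrein pair and the Serpina3 trio were the only members within 1 Mb of another.

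Tubb3 had 186, 179 and 164 normalized counts in FT 2 weeks, 260 in FT 1 week, 128 and 158 in HS 2 weeks and 177, 205 and 82.2 in HS 1 week, against 69.6, 23.9 and 23.4 in NI. No injured library overlapped NI, but the lowest injured library was only 1.18 times the highest NI library. Tubb3 was tested against NI, but it was named with earlier results known and fell short of the rule on this same contrast. Its p-values are thus not free of that choice. The log2 difference from NI was 2.34 ± 0.42 (SE) in FT 2 weeks, 2.90 ± 0.60 in FT 1 week, 2.03 ± 0.47 in HS 2 weeks and 2.05 ± 0.42 in HS 1 week. With limma the adjusted p was 0.122 for FT 2 weeks, 0.0746 for FT 1 week, 0.451 for HS 2 weeks and 0.275 for HS 1 week, so no comparison passed. The likelihood ratio test of edgeR gave adjusted p-values of 0.00239 for FT 2 weeks, 0.00064 for FT 1 week, 0.0501 for HS 2 weeks and 0.0133 for HS 1 week. Without NI replicate 1, the NI library where Tubb3 was highest, Tubb3 met the rule, as it did without HS 1 week replicate 3. Its p-values in those settings are not given, since the contrast with NI would then both choose and test it. Dcx, the doublecortin gene of young neurons, had 2.08 to 6.24 in injured libraries against 2.99 to 3.83 in NI.

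The library that most often came nearest to NI was HS 1 week replicate 3, which was the lowest injured library for 10 of the 20 members. For all 13240 genes with the same mean, it was the lowest in 17.5%. FT 2 weeks replicate 2 was lowest for 5 members, HS 1 week replicate 2 and FT 2 weeks replicate 3 for 2 each, and FT 2 weeks replicate 1 for 1. HS 1 week replicate 2 was the highest library for 8 members (22.0% of all genes) and FT 1 week for 4 (10.3%). Relative to the mean of the injured libraries, the median member stood at a log2 ratio of -0.73 in HS 1 week replicate 3, the lowest of the injured libraries, and at 0.25 in FT 1 week, the highest. HS 1 week replicate 3 also had the lowest astrocyte marker sum of the 12 libraries (2955) and the highest microglia and macrophage sum (14195). HS 2 weeks replicate 1 (3411 astrocyte, 13678 microglia and macrophage) and FT 1 week (4158 and 10754 for the same sums) were lowest for 0 members, and in 7.88% and 11.7% of all genes. HS 1 week replicate 1 and HS 2 weeks replicate 2 were also lowest for 0 members, and in 5.10% and 5.65% of all genes. Their microglia and macrophage sums were 3800 and 2259. The median member stood at -0.27 in HS 2 weeks replicate 1, the next lowest injured library after HS 1 week replicate 3. Among NI libraries, replicate 1 was the highest for 13 members (39.4% of all genes). NI replicate 1 was unlike the other NI libraries in marker sums. Its microglia and macrophage sum was 972, against 6284 in replicate 2 and 8358 in replicate 3. Its sum of 8 pericyte and fibroblast markers was 7005, against 643 and 456, and its neuron sum 158, against 77.2 and 68.4. Its astrocyte sum (8609) lay between theirs (9480 and 3169). The part of cell composition in these levels was not tested. The count of 20 members rose to 77 without NI replicate 1, 39 without NI replicate 3 and 34 without HS 1 week replicate 3, and all 20 stayed in each case, since leaving out a library cannot lower the ratio.

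**Figure D4:**
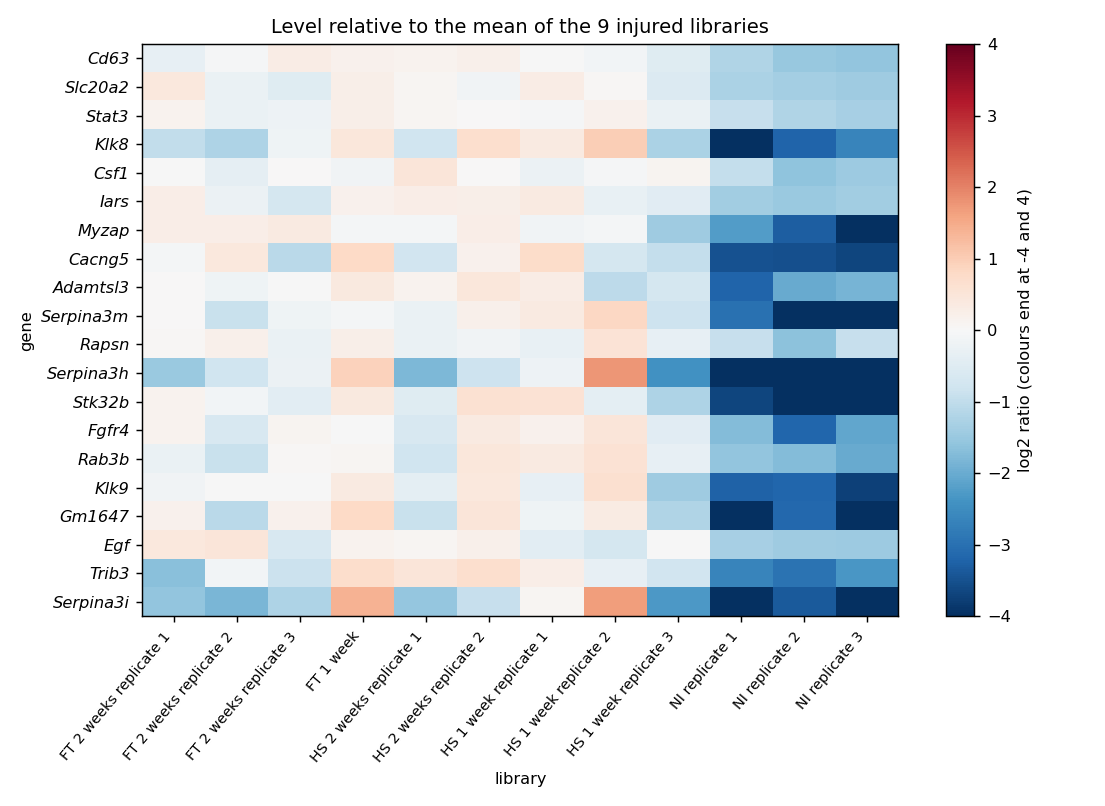
Level of each of the 20 genes in each library as the log2 ratio to its mean over the 9 injured libraries (colours end at -4 and 4). The column of HS 1 week replicate 3 is mostly blue (median -0.73), and the Serpina3h and Serpina3i rows are reddest in HS 1 week replicate 2 and FT 1 week.

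Comparisons among the injured groups asked whether the 20 genes differed by severity or time. The differences themselves were taken without the NI levels, but the NI libraries entered the shared estimate of spread. The rule that chose the genes had used the NI levels. It also required all 9 injured libraries to be high, so a gene at the NI level in any injured group could not be a member. With limma, 0 of the 20 differed between FT and HS at 1 week at an adjusted p under 0.05 and at least 2-fold, where 57 of 16388 genes (0.348%) did, with 0 members and 925 genes at an unadjusted p under 0.05. At 2 weeks 0 members and 0 genes (0%) were called between FT and HS, with 1 member and 370 genes at an unadjusted p under 0.05. Between HS 2 weeks and HS 1 week 0 members and 0 genes (0%) were called, with 0 members and 266 genes at an unadjusted p under 0.05. Between FT 2 weeks and FT 1 week 0 members were called, against 63 genes (0.384%), with 2 members and 1502 genes at an unadjusted p under 0.05. The interaction of severity and time called 0 members and 14 genes (0.0854%), with 1 member and 1154 genes at an unadjusted p under 0.05. The quasi-likelihood and likelihood ratio tests of edgeR and DESeq2 also called 0 members in each of the 5 comparisons. The 95% intervals were wide, from -1.69 to 3.37 over the members for FT against HS at 1 week and from -2.32 to 2.23 at 2 weeks on the log2 scale, so these data do not show that the members were alike after both injuries.

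The directions were uneven around the FT 1 week library. At 1 week 16 members were higher and 4 lower in FT than in HS, with a median log2 difference of 0.42, against 0.0037 over all genes with the same mean. Without HS 1 week replicate 3 the counts were 16 and 4 and the median 0.17. In 7 of them (Cd63, Stat3, Cacng5, Adamtsl3, Gm1647, Egf and Trib3) the FT 1 week library was above all HS 1 week libraries, which held for 19% of all genes, and 0 members were below all of them (21.4% of all genes). In FT 2 weeks against FT 1 week 2 members were higher and 18 lower (54.1% of all genes were lower), with a median of -0.39. All 3 FT 2 weeks libraries were below the FT 1 week library in 12 members (30.1% of all genes) and above it in 1, Myzap (27.1%). Rescaling every library to the same total gave 4 higher and 16 lower, with the median of all genes at 0.12. Both comparisons rest on the same single FT 1 week library, and neither direction was tested over the list. At 2 weeks 5 members were higher and 15 lower in FT than in HS (median -0.17, 52.8% of all genes lower), with 0 members above both HS libraries (10.9% of all genes) and 2 below both, Adamtsl3 and Trib3 (10.2%). Without HS 2 weeks replicate 2 the counts turned to 11 higher and 9 lower (median 0.02). HS 2 weeks against HS 1 week had 13 members higher and 7 lower (median 0.10, 50.3% of all genes higher). Without HS 1 week replicate 3 this turned to 7 higher and 13 lower (median -0.16), and without HS 2 weeks replicate 2 to 9 higher and 11 lower (median -0.09). Cd63, Egf and Trib3 were above all HS 1 week libraries in both HS 2 weeks libraries (5.17% of all genes), and 0 members were below them all (6.55%).

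Trib3 had the smallest p in 4 of the 5 comparisons. Its difference between FT and HS was -1.11 ± 0.33 (SE) at 2 weeks on the log2 scale (limma, adjusted p = 0.961), with all 3 FT libraries (1.24, 3.61 and 2.15) below both HS libraries (5.48 and 6.30). At 1 week the difference was 0.80 ± 0.42 (limma, adjusted p = 0.975), with the single FT library (6.45) above the HS libraries (4.73, 3.12 and 2.32). The interaction was -1.91 ± 0.54, with an interval from -3.09 to -0.72 (limma, adjusted p = 0.422). None of these passed after adjustment over all genes. Serpina3i was lower in FT 2 weeks than in FT 1 week by a log2 difference of -2.19 ± 0.74 (limma, adjusted p = 0.39), and this difference alone among the members was called under an alternative, with array quality weights (-2.22, adjusted p = 0.0312). With those weights 295 of all 16388 genes were called in that comparison, against 63 without them, so this call does not set Serpina3i apart. For Myzap and Fgfr4 the log2 differences between FT and HS at 2 weeks were 0.19 ± 0.45 and 0.00 ± 0.42, within the spread of the libraries.

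**Figure D5:**
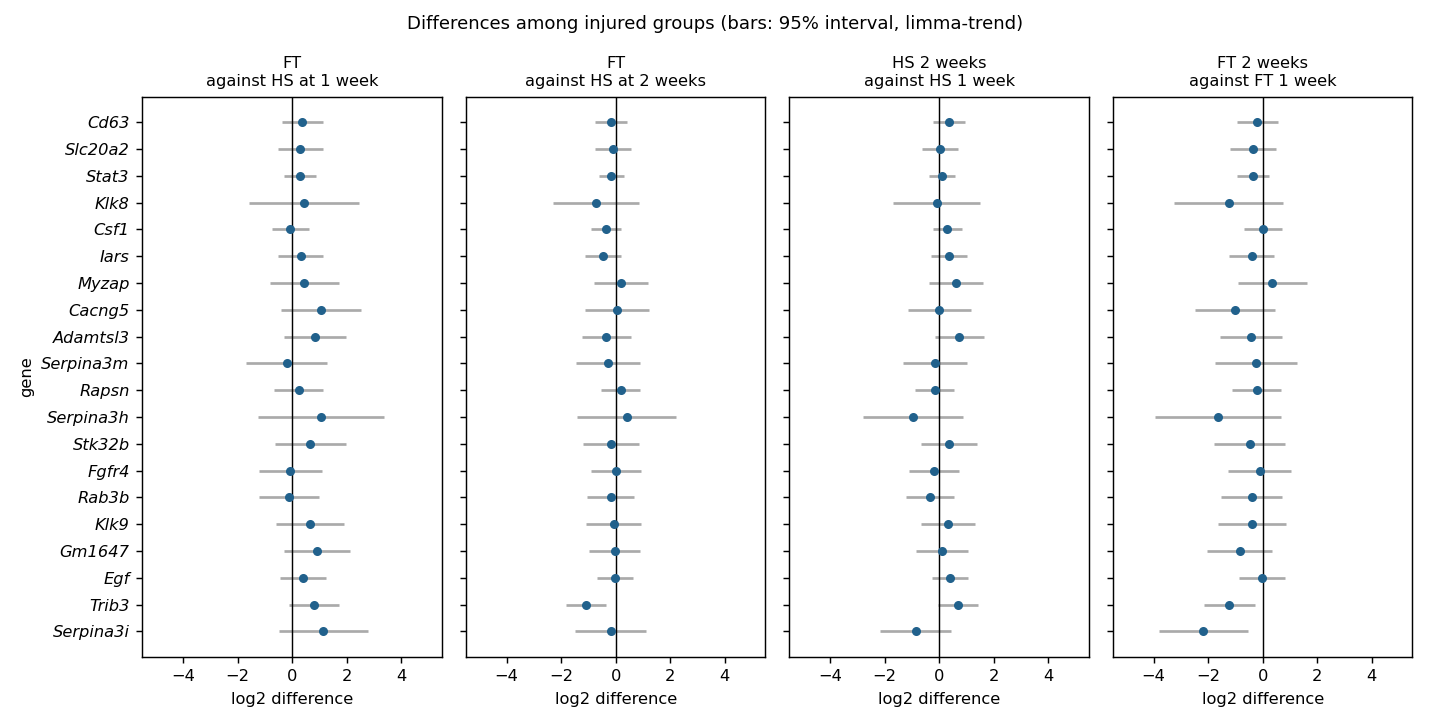
Log2 difference (points) with its 95% interval (bars, limma) for each of the 20 genes in 4 comparisons among injured groups. Nearly all intervals cross 0, those of Trib3 in FT against HS at 2 weeks (-1.84 to -0.37) and in FT 2 weeks against FT 1 week (-2.15 to -0.29) and of Serpina3i in the last panel (-3.82 to -0.55) being the exceptions.

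A further 99 genes of 11 families and pathways, left after the members were taken out, were tested against NI. Since the members were taken out on the same contrast, the counts do not set these relatives apart from them. With limma, 0 were called in FT 2 weeks (0.0427% of all genes in either direction), 7 in FT 1 week (0.452%), 0 in HS 2 weeks (0.0122%) and 0 in HS 1 week (0.0061%). At an unadjusted p under 0.05 there were 25 in FT 2 weeks, 34 in FT 1 week, 26 in HS 2 weeks and 24 in HS 1 week, against 1773 of all genes in FT 2 weeks, 1837 in FT 1 week, 1227 in HS 2 weeks and 1256 in HS 1 week. The 7 were higher in FT 1 week, and 6 of them belonged to the 20 interferon-responsive genes, such as Stat2, Oasl2, Rtp4, Xaf1 and Zbp1. Serpina3g was 1 of 3 further Serpina3 genes. Serpina3g had a log2 difference of 3.44 ± 0.54 in FT 1 week (limma adjusted p = 0.0203), where it had 68.8 normalized counts.

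In the other lists 0 genes were called against NI with limma: 17 tubulins with Tubb3 among them, 18 genes of the neuronal lineage, 8 of the FGF receptor list, 5 kallikreins, 2 Cacng genes, Stk32a, 5 relatives of Adamtsl3, 16 of the integrated stress list and 4 enolases. The median log2 difference from NI of the interferon list was 0.67 in FT 2 weeks, 2.84 in FT 1 week, 1.00 in HS 2 weeks and 1.36 in HS 1 week. That of the integrated stress list was 0.35 in FT 2 weeks, 0.34 in FT 1 week, 0.25 in HS 2 weeks and 0.22 in HS 1 week. Ddit3, the stress factor CHOP (55.4 to 96.0 in injured, 50.2 to 55.2 in NI libraries), and Asns, asparagine synthetase (16.6 to 24.4 in injured, 11.4 to 14.8 in NI libraries), were above NI in every injured library but short of the ratio, Ddit3 only barely above. The rest of the 16 integrated stress genes overlapped NI, with Psat1, Phgdh, Sars, Chac1, Atf3 and Atf5 among them. Of the tubulins, Tubb4a, Tuba1a and Tubb5 overlapped NI. Mapt (486 to 764 in injured, 247 to 462 in NI libraries) and Prox1 (30.1 to 65.8 in injured, 18.2 to 29.1 in NI libraries) did not, but fell short of the ratio. The rest of the 18 neuronal lineage genes overlapped NI, the abundant Ncam1 (932 to 1558 in injured, 711 to 1206 in NI libraries) and Stmn1 among them. The median log2 difference of that list was 0.07 in FT 2 weeks, -0.34 in FT 1 week, -0.32 in HS 2 weeks and 0.13 in HS 1 week. Adamtsl4 had 121 to 176 in injured libraries against 61.0 to 108 in NI. Eno2, on both the enolase and the neuron marker lists, had 56.3 to 113 in injured libraries against 19.4 to 45.3 in NI. Like Tubb3, it was above NI in every injured library but short of the ratio (1.24), and met the rule without HS 1 week replicate 3. The calls depended on the libraries used. In FT 1 week they numbered 13 without NI replicate 1, 4 without NI replicate 2, NI replicate 3 or FT 2 weeks replicate 2, and 14 without either HS 2 weeks library. Without NI replicate 1 they numbered 8 in FT 2 weeks, 2 in HS 2 weeks and 1, Tubb3, in HS 1 week. In FT 2 weeks 1, Tubb3, was called without HS 1 week replicate 3, and in HS 1 week 1, Oasl2, without either HS 2 weeks library. Tubb3 met the rule without NI replicate 1 and without HS 1 week replicate 3, so its calls in those settings are no support. The quasi-likelihood test of edgeR called 8 in FT 1 week and 0 in each other group. Its likelihood ratio test called 5 in FT 2 weeks, 19 in FT 1 week, 1 in HS 2 weeks and 10 in HS 1 week, and DESeq2 called 7 in FT 2 weeks, 18 in FT 1 week, 4 in HS 2 weeks and 12 in HS 1 week. Totals over all 16388 genes also differed by tool. In that order of groups they were 4, 70, 2 and 1 with the quasi-likelihood test and 281, 274, 80 and 71 with the likelihood ratio test. With DESeq2 they were 340, 370, 124 and 83.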

How the data were processed

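Polyadenylated RNA of sorted eGFP+ cells was sequenced in 12 libraries, which GEO's labels place in 5 groups. Per the labels and the study's methods, the authors used TopHat2 2.0.9 and the mm10 (GRCm38) build for mapping, HTSeq 0.5.4p3 for gene counts and edgeR 3.3.6 for scaling, after a filter on low counts. How strand and shared reads were counted is not given in the sources used here. The deposited signal values are gene counts divided by 1 factor per library (normalized counts), and 100% of them gave whole reads within 1e-06. Intervals cover the spread between libraries.

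The members and gene lists were chosen with earlier results of these data known. The named genes are all members, genes nearest the threshold, listed relatives that were called or most abundant, and Tubb3. Ddit3, Asns, Dcx, Stat5a, Mapt, Prox1, Eno2 and genes that overlap or adjoin a member were named after their values were seen. The tests used limma 3.58.1 with a trend (R 4.3.3) on log2 of the normalized count plus 1, in 1 model of all 12 libraries and 5 groups, for the 16388 genes whose mean reached 0.5 in some group. P-values were two-sided and adjusted by the method of Benjamini and Hochberg across these genes, and a gene was called at an adjusted p under 0.05 and 2-fold. A fold on this scale understates the change of low genes. Alternatives were other ratios, means, pseudocounts, filters and scalings, array quality weights, a replicate block, each library left out, and edgeR 4.0.16 and DESeq2 1.42.0 on the recovered reads. Positions follow the GENCODE annotation of GRCm38, which held 93.6% of the symbols, and promoters follow RefSeq (GRCm38.p6). The tests were tested on simulated data. Some genes under the naming rule are not reported here.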

Additional observations from a re-analysis of the deposited data

How the results depend on the processing

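The number of members was 57 at a ratio set lower and 9 at a ratio of 2, and 20 to 77 with each library left out in turn. It was 16 to 22 with other mean minimums and median-ratio scaling, and 14 with rescaling to the same total, of normalized counts or of reads. Members called among injured groups stayed at 0 under all alternatives run, except 1 with array quality weights in FT 2 weeks against FT 1 week, where Serpina3i reached -2.22. That setting called 295 of all 16388 genes in this comparison. Relatives called against NI numbered 7 in FT 1 week, and 4 to 14 with each library left out, 19 with the likelihood ratio test, 18 with DESeq2 and 27 with array quality weights. In FT 2 weeks they numbered 0, and 0 to 8, 5, 7 and 17 under the same settings, in HS 2 weeks 0, and 0 to 2, 1, 4 and 2, and in HS 1 week 0, and 0 to 1, 10, 12 and 24. Of all 16388 genes, array quality weights called 928 in FT 1 week, 1447 in FT 2 weeks, 76 in HS 2 weeks and 1267 in HS 1 week. The larger counts of relatives thus came with larger counts over all genes. With the replicate number as a block, which left out the unnumbered FT 1 week library, 0 members were called in FT against HS at 2 weeks and in HS 2 weeks against HS 1 week, the comparisons among injured groups it allowed, and 0 relatives against NI, and 11 members were higher and 9 lower in FT than in HS at 2 weeks. Same-numbered libraries did not deviate together throughout (r of -0.269 and 0.63 between HS 2 weeks and HS 1 week over 13397 genes), so the numbers were not treated as a pairing. Under 20 reads stood behind some values of Trib3, Gm1647, Serpina3h, Serpina3i, Serpina3m, Stk32b, Klk9 and Fgfr4, NI libraries of each among them, and their folds are limited by counting.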
